A study of Mus musculus with 18 samples.

Results

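Transcripts of the cortex and striatum were compared between 2 poly(U) fractions of the same RNA in 3 control mice, which took 6 of the 18 arrays of the series. For each mouse and each probe set (the group of array probes that reads 1 transcript), the log2 signal of the short-tail fraction was subtracted from that of the long-tail fraction. The mean of the 3 differences, called the tail ratio here, was tested against 0, and no measured value was used to choose the arrays. A positive tail ratio means a higher signal in the long-tail fraction, and 1 unit is a 2-fold change. Both fractions of a mouse came from 1 preparation of total RNA, so the cell makeup of the tissue is shared between them.

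All mice were 6 weeks old, and cortex and striatum were dissected together, so each array averages neurons, glia and vessels of both regions. In such bulk RNA, fewer cells of a type and less RNA per cell cannot be told apart. The control mice carry the label CTRL, and 3 mice of the other genotype, TgCPEB4∆4, were used for 1 comparison at the end. The sources used here give neither the strain, nor the relation of the mice to each other, nor the promoter of the transgene. RNA bound to poly(U)-agarose was released with 25% formamide for the short-tail fraction and with 90% formamide for the long-tail fraction. From each preparation 5 ng was amplified over 21 cycles and 8 µg of cDNA was labelled. Equal mass was labelled, so a tail ratio compares relative signals within each fraction. The sources used here do not say whether all arrays were normalized together. Over all probe sets the SD of the deposited signal was 1.704, 1.81 and 1.77 on the long-tail and 1.97, 1.96 and 1.94 on the short-tail arrays, and the zero of the ratio depends on the normalization. The ratio gives neither a tail length in bases nor the amount of RNA in a fraction.

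A poly(A) tail is added to nearly every mRNA in the nucleus, is covered by poly(A)-binding proteins and is shortened in the cytoplasm by deadenylases until the mRNA is decapped or degraded. Stable, well translated mRNAs, such as those of ribosomal proteins, are known to carry short tails at steady state, while newly made and nuclear RNA carries long ones. In neurons some tails are lengthened again in the cytoplasm by a machinery that CPEB proteins recruit. Replication-dependent histone mRNAs end in a stem-loop and carry no tail.

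Markers of both dissected regions were present. An array's background was taken as its brightest control probe set for nonspecific binding, and the 4 tested cortical excitatory markers exceeded it on all 6 fraction arrays, as did 5 of 7 striatal, 6 of 7 GABAergic, 7 of 8 astrocyte, 6 of 8 oligodendrocyte and 5 of 7 microglial markers. Of 6 cerebellar markers on the array 3 were bright enough to be tested, and 1 of these exceeded it throughout. The 6 fraction arrays differed among themselves in the long-tail fraction above all. Over the 27022 tested probe sets the short-tail signal correlated with total RNA at r = 0.958, 0.959 and 0.949 in mice 1, 2 and 3. For the long-tail signal r was 0.770, 0.962 and 0.903. The SD of the tail ratio over genes was 1.13, 0.517 and 0.815, so mouse 1 had a range about 2 times as wide as mouse 2. The order of genes was shared, with r between the tail ratios of 0.80 for mice 1 and 2, 0.87 for mice 1 and 3 and 0.87 for mice 2 and 3. These correlations run across probe sets or genes, which are not independent replicates, and they describe the arrays only.

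Many genes lay toward one fraction, most of them toward the short-tail one. Of 11974 genes, each read by its brightest probe set, 3691 lay toward short tails (30.8%) and 1326 toward long tails (11.1%) at an adjusted p under 0.05 in limma. All 5017 (41.9%) had the same sign in the 3 mice. The mean tail ratio ran from -4.15 to 1.83 with a median of -0.18, and 2143 of the genes that passed lay below -1 against 187 above 1. The zero point of this scale depends on the scaling: quantile normalization of the 6 arrays again moved the median gene from -0.18 to -0.00 and the split to 2391 short and 1611 long; this setting is called renormalization below. The number of long calls also rested on mouse 3. Without it 2052 genes passed toward short and 160 toward long tails, and the 2 mice left differed most in the spread of their ratios. With and without mouse 3, 2153 genes passed. Their sign could not change, because every gene that passed had the same sign in the 3 mice. Of the genes named below, those that passed with 3 mice and not without mouse 3 were Camk2b, Cnot8, Cox8c, Cpeb1, Cpeb3, Dnmt1, Gabrd, Gabrg3, Grin2b, H1f6, Inhba, Jpx, Malat1, Ndufs1, Nr4a3, Polr2a, Psmb9, Shank3, Snhg5, Srrm1, Srrm2, Tbr1, Tob2 and Xist.

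**Figure D1:**
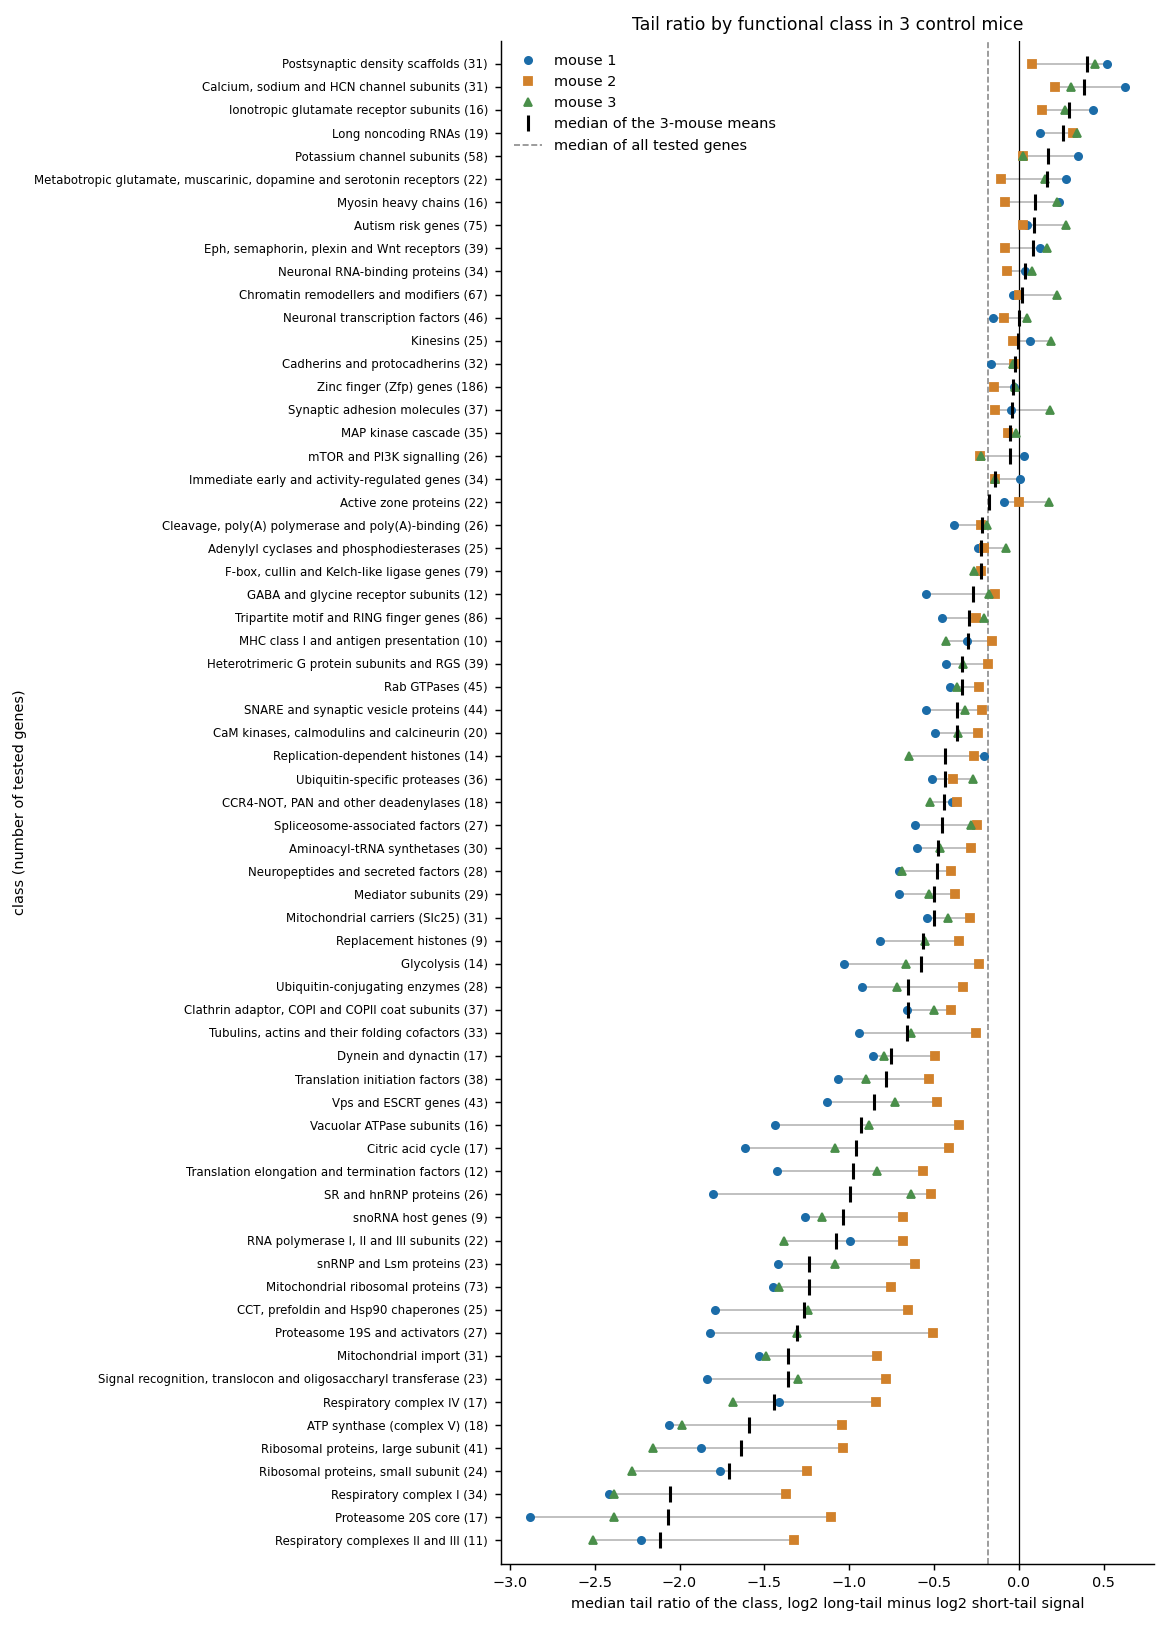
Median tail ratio of 65 functional classes, with the number of tested genes in parentheses. The x axis is log2 long-tail minus log2 short-tail signal, symbols are the medians in each of the 3 control mice, the black bar is the median of the mean ratios, and the dashed line is the median of all genes (-0.18). Respiratory complexes I to III, the proteasome core and ribosomal proteins lie lowest, below -1 in each mouse, and postsynaptic scaffolds and ion channel subunits lie highest.

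The classes spread over more than 2 log2 units. Of 65 classes 53 held more members toward short than toward long tails. This count ran from 52 to 57 when single mice were left out and was 43 after renormalization. Over all genes 30.8% lay toward short and 11.1% toward long tails, so the count does not show that a class lies lower than other genes. Zinc finger genes, for example, are among the 53 with a median of -0.03, above the -0.18 of all genes. The lists were drawn up with earlier results of these data known, so their positions describe the data and were not tested as sets. The lowest medians were those of respiratory complexes II and III (-2.12), the proteasome core (-2.07), respiratory complex I (-2.06) and the small and large ribosomal subunits (-1.71 and -1.64). The highest were those of postsynaptic density scaffolds (0.40), calcium, sodium and HCN channel subunits (0.38), ionotropic glutamate receptor subunits (0.30) and long noncoding RNAs (0.26). The order of these 4 rested on single mice: without mouse 1 their medians were 0.32, 0.25, 0.16 and 0.33, without mouse 2 0.40, 0.41, 0.38 and 0.23, and without mouse 3 0.30, 0.40, 0.36 and 0.22. After renormalization the scaffolds stood at 0.55 and the receptors at 0.37, below autism risk genes (0.40), chromatin genes (0.385) and neuronal RNA-binding proteins (0.38). In the plot of class medians, mouse 2 lies nearest to 0 in nearly every class far from it.

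Genes of the respiratory chain lay almost entirely toward short tails. Complex I takes electrons from NADH, and 33 of its 34 nuclear-encoded subunits and close relatives lay toward short tails and 0 toward long tails, with medians of -2.41, -1.37 and -2.39 in mice 1, 2 and 3. The accessory subunit Ndufc1 read 11.61, 11.45 and 11.59 in the short-tail and 7.95, 9.53 and 7.88 in the long-tail fraction. Its signals did not overlap, and its tail ratio was -3.10 ± 1.02 (SD, n = 3, limma adjusted p = 0.0094). Ndufa1, another accessory subunit, read 10.70, 10.53 and 10.54 against 7.49, 8.65 and 6.46, a tail ratio of -3.06 ± 1.11 (adjusted p = 0.0094). Ndufb7 varied less, with tail ratios of -1.93, -2.03 and -2.32. The catalytic flavoprotein and iron-sulphur subunits Ndufv1 (-1.19 ± 0.37) and Ndufs1 (-1.16 ± 0.74) lay nearest to 0 of the 33, and were named after their values were seen. The exception, Ndufa4l2, a relative of Ndufa4, read 0.37 ± 0.59 and did not pass, and it too was picked after its value was known.

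The other complexes followed, with 1 exception in complex IV. In complexes II and III 10 of 11 genes lay toward short tails, among them Uqcrq, a small subunit of the cytochrome bc1 complex. Uqcrq read 11.81, 11.61 and 11.78 in the short-tail and 9.04, 9.81 and 8.11 in the long-tail fraction, a tail ratio of -2.75 ± 0.94 (adjusted p = 0.0094). In complex IV, cytochrome c oxidase, 12 of 17 lay toward short tails with a median of -1.44, among them Cox6c (-2.29 ± 0.92) and Cox7a2 (-2.23 ± 0.85). Cox8c, the form of subunit VIII best known from testis, lay toward long tails at 0.80 ± 0.59 (adjusted p = 0.047). That call ended without mouse 1 (0.48, adjusted p = 0.070) or without mouse 3 (0.85, adjusted p = 0.116). All 18 ATP synthase genes lay toward short tails with a median of -1.59, as did 24 of 31 genes of mitochondrial protein import (median -1.36), such as the outer membrane translocase subunit Tomm7 (-2.26 ± 0.69). Mitochondrial carriers of the Slc25 family lay closer to the other genes, with a median of -0.50. Of 31 carriers 10 lay toward short (32.3%, near the 30.8% of all genes) and 2 toward long tails (6.45%, against 11.1%), or 7 and 0 without mouse 3. No gene encoded in mitochondrial DNA was among the probe sets named here.

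Ribosomal protein mRNAs, which many cells store and translate as a coordinated set, formed the second large block. In the large subunit 39 of 41 lay toward short tails and 0 toward long tails, and in the small subunit 22 of 24 and 0. The medians of mice 1, 2 and 3 were -1.87, -1.03 and -2.16 in the large and -1.76, -1.25 and -2.28 in the small subunit. Rps20 read 11.79, 11.68 and 11.73 in the short-tail fraction, close to its 11.42, 11.40 and 11.31 in total RNA, and 8.74, 10.16 and 8.17 in the long-tail fraction. Its tail ratio was -2.71 ± 1.06 (adjusted p = 0.0098). Rpl26 (-2.71 ± 1.09) and Rps14 (-2.69 ± 1.08) were as low, and Rpl31 was more even, with -2.09, -1.74 and -2.26 in the 3 mice. The 4 that did not pass, named after their values were seen, were Rpl4 (-0.92 ± 0.85), Rpl7a (-0.46 ± 0.41), Rps19 (-0.62 ± 0.62) and Rps15a (-0.40 ± 0.30). Of the 65 genes 24 were read by probe sets that may also bind related sequences, which for ribosomal proteins include processed pseudogenes, so single values can mix copies.

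Mitochondrial ribosomal proteins, encoded in the nucleus by a separate gene set, leaned the same way with a median of -1.24. Of 73 genes 59 lay toward short and 0 toward long tails, or 38 without mouse 3 and 38 where only probe sets above background on all 6 arrays were tested. Mrpl52 read 10.11, 9.40 and 10.01 in the short-tail and 7.55, 7.81 and 7.56 in the long-tail fraction, a tail ratio of -2.20 ± 0.53 (adjusted p = 0.0094). Its groups stood apart by more than 1 unit in every mouse.

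Ribosomal protein genes are known for a pyrimidine-rich start of transcription, from the translational control of these mRNAs. The short-tail position was not limited to genes in which the rule below found such a start. A tract was counted where a C was followed by C or T letters to a total of at least 7 bases, on the sense strand, starting from 10 bases before to 5 bases after the RefSeq start (GRCm38.p6). It stood in 8.32% of 32851 promoters of this table, in 10.5% of the 9605 tested genes with a promoter there (80.2% of 11974), in 9 of 30 large and 9 of 21 small subunit genes, and in 3 of 30 complex I genes. Genes with and without the tract had median tail ratios of -0.19 and -0.20. A match is a description of these letters and not a regulatory site. The rule matched fewer ribosomal protein genes of either subunit than it left out, and 0 of 8 host genes of small nucleolar RNAs. A gene without a match may therefore still have a pyrimidine-rich start. Printed below are 12 bases before and 18 bases from the start of transcription, in sense, with the tract in capitals where there is one, for 4 ribosomal protein genes that hold it and 3 complex I genes that lie at least as low without it. The 4 were chosen for their tract: Rps21 read -2.29 ± 1.20, Rpl31 -2.03 ± 0.27, Rps24 -1.83 ± 0.52 and Fau, whose protein is cut to ribosomal protein eS30, -1.70 ± 0.47.
Rps21, chr2:180257367-180257396, plus strand: cgaggacccgCCCTCCTgcccaatagtgct
Rpl31, chr1:39367839-39367868, plus strand: cctcctcgCCTCCCCgtgacccggaagttg
Rps24, chr14:24490666-24490695, plus strand: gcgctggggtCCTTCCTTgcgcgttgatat
Fau, chr19:6057935-6057964, plus strand: gcgcccccaCTTCTTCCTCTTTCTTgactc
Ndufc1, chr3:51408938-51408967, minus strand: cgagcaacccgagaagaggcggagcctgcg
Ndufa1, chrX:37191221-37191250, minus strand: ccgcgaacgccagtcacttttgggccccca
Ndufb2, chr6:39592553-39592582, plus strand: acgtcacgggccgggactcggggaagtgac

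**Figure D2:**
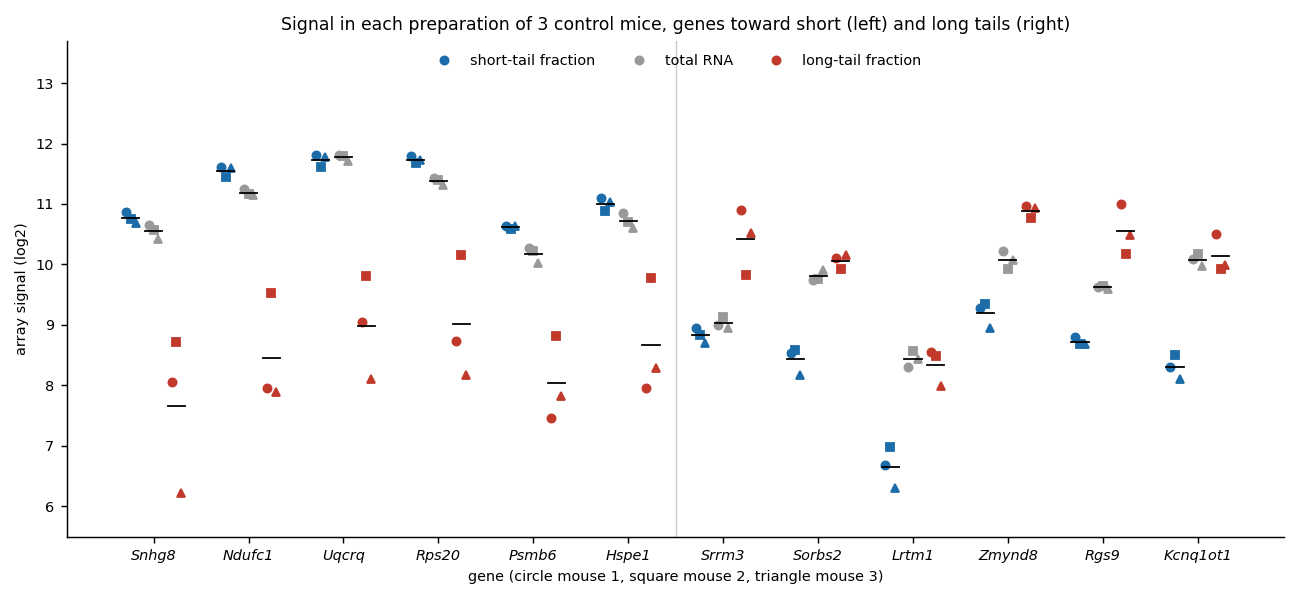
Array signal (log2, y axis) of 6 genes toward short and 6 toward long tails in the short-tail fraction, total RNA and the long-tail fraction of 3 control mice; bars are means and symbols are mice. For the 6 genes on the left the short-tail signal lies near total RNA and the long-tail signal lies lower and wider, while for Lrtm1, Sorbs2 and Kcnq1ot1 on the right the long-tail signal lies near total RNA and the short-tail signal below it.

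Factors that serve the ribosome leaned toward short tails to a lesser extent than the ribosome's own proteins. Of 38 initiation factor genes 23 lay toward short and 0 toward long tails (median -0.78), or 14 without mouse 3 and 16 and 3 after renormalization, led by Eif1b, a factor of start codon choice (-2.05 ± 0.76). Of 12 elongation and termination factors 9 lay toward short and 0 toward long tails (median -0.98), or 5 and 0 after renormalization. Aminoacyl-tRNA synthetases, which charge tRNAs, were more mixed, with 14 of 30 toward short and 2 toward long tails and a median of -0.48, with 4 and 0 without mouse 3 and 5 and 3 after renormalization. The ribosome-associated Tma7 read -2.63 ± 0.72 (adjusted p = 0.0094) and Naca, a subunit of the nascent polypeptide-associated complex, -1.64 ± 0.70. Of 23 genes of signal recognition, the translocon and oligosaccharyl transfer, which bring new proteins into the endoplasmic reticulum, 16 lay toward short and 0 toward long tails, with a median of -1.36, and the signal peptidase subunit Spcs1 read -2.17 ± 0.82.

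Genes of protein folding and breakdown gave another block. In the 20S core of the proteasome, the chamber that degrades proteins, 16 of 17 subunits lay toward short tails, with medians of -2.88, -1.10 and -2.39 in mice 1, 2 and 3, or 8 above background only. The catalytic subunit Psmb6 read 10.64, 10.59 and 10.63 in the short-tail and 7.47, 8.82 and 7.83 in the long-tail fraction, a tail ratio of -2.58 ± 0.73 (adjusted p = 0.0094). Psma2 (-2.54 ± 0.89) and the assembly chaperone Pomp (-2.62 ± 0.97) were alike. The remaining member, Psmb9, is the immunoproteasome subunit that can replace Psmb6, and it lay toward long tails: 8.03, 7.79 and 8.11 in the long-tail against 7.44, 7.46 and 7.47 in the short-tail fraction. Its tail ratio of 0.52 ± 0.16 passed narrowly (adjusted p = 0.043) and did not pass without any 1 mouse (0.46 to 0.62). Of 27 regulatory particle and activator genes 18 lay toward short and 0 toward long tails, with a median of -1.31, and Psmc2, an ATPase of the base, read -1.85 ± 0.87.

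Chaperones of the CCT, prefoldin and Hsp90 groups had 21 of 25 genes toward short and 0 toward long tails (median -1.27), or 13 without mouse 3. The mitochondrial co-chaperonin Hspe1 read -2.33 ± 1.07 and the prefoldin subunit Pfdn6 -1.72 ± 0.81. Ubiquitin ligase genes had a median close to that of all genes: 26 of 79 F-box, cullin and Kelch-like genes lay toward short and 3 toward long tails (32.9%, against 30.8% of all genes for short), with a median of -0.22. Without mouse 3 these counts were 13 and 0, and after renormalization 18 and 11. For ubiquitin-conjugating enzymes the counts were 16 and 1 of 28 (median -0.65), 9 and 0 without mouse 3, 9 and 1 after renormalization and 6 and 1 above background only.

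RNA polymerase and Mediator genes had members on both sides. Of 22 RNA polymerase subunits 14 lay toward short tails with a median of -1.08, or 8 above background only, among them the small shared subunit Polr2f (-1.998 ± 0.848) and Polr2j (-1.58 ± 0.37). The largest subunit of RNA polymerase II, Polr2a, lay toward long tails: 9.53, 8.02 and 9.04 in the long-tail against 8.09, 7.92 and 7.78 in the short-tail fraction. In mouse 2 the fractions of Polr2a differed by 0.10 only, and its tail ratio of 0.94 ± 0.73 (adjusted p = 0.045) did not pass without mouse 1 (0.69, adjusted p = 0.094) or without mouse 3 (0.77, adjusted p = 0.16). In Mediator, which links transcription factors to the polymerase, 14 of 29 subunits lay toward short (48.3%, against 30.8% of all genes) and 4 toward long tails (13.8%, against 11.1%). The Mediator counts were 8 and 1 without mouse 3, 14 and 2 without mouse 1 and 7 and 3 above background only. Med28 read -1.999 ± 0.55 (adjusted p = 0.0094) and Med1, a large subunit that binds nuclear receptors, 1.17 ± 0.74 (adjusted p = 0.027). With all tested probe sets of a gene averaged, Med1 read 0.19 (adjusted p = 0.30).

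Splicing genes lay mostly toward short tails, with exceptions among serine- and arginine-rich proteins. The Sm and Lsm proteins and other snRNP components had 15 of 23 genes toward short and 0 toward long tails (median -1.24), but 4 of the 15 had all 6 arrays above background, and with such probe sets only the median was -0.46 with 4 toward short tails. Snrpb, a core Sm protein, read -1.28 ± 0.13 and Snrpd2 -1.52 ± 0.22, both with adjusted p = 0.0094. SR and hnRNP proteins had 14 of 26 toward short tails (median -0.995), with medians of -1.81, -0.52 and -0.64 in mice 1, 2 and 3 that show mouse 1 apart from the others, and after renormalization 7 lay toward short and 2 toward long tails. The 1 member toward long tails was Tra2a, a splicing activator that read 9.71, 9.84 and 10.53 in the long-tail against 8.78, 8.74 and 8.52 in the short-tail fraction. Its tail ratio was 1.34 ± 0.58 (adjusted p = 0.013). Of 27 spliceosome-associated factors 10 lay toward short (37.0%, against 30.8% of all genes) and 3 toward long tails (11.1%, the share over all genes). For these factors the counts were 6 and 1 without mouse 3 and 5 and 4 after renormalization. The 3 were the serine- and arginine-rich matrix genes Srrm1, Srrm2 (1.03 ± 0.30) and Srrm3 (1.60 ± 0.52, adjusted p = 0.0097), the last of which activates neuronal microexons. Sf3b3 of the U2 snRNP read -1.16 ± 0.39.

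The machinery that sets tail length had members on both sides, and its counts depended on the setting. Of 18 deadenylase and recruiter genes 7 lay toward short (38.9%, against 30.8% of all genes) and 1 toward long tails (5.56%, against 11.1%). Their median was -0.44. They included Cnot8 (-1.17 ± 0.76), a catalytic subunit of CCR4-NOT, and Pan3 (-1.45 ± 0.97), which guides the PAN2 nuclease. Tob2, which recruits CCR4-NOT, read 0.66 ± 0.44 and passed narrowly (adjusted p = 0.0496), not without mouse 1 (0.42) or mouse 3 (0.69). Of 26 genes of cleavage, poly(A) addition and poly(A) binding 10 lay toward short (38.5%) and 2 toward long tails (7.69%). Their median of -0.22 was close to that of all genes. Without mouse 3 the counts were 4 and 0 in the first list and 6 and 0 in the second, and without mouse 1 they were 8 and 0 and 9 and 0. After renormalization they were 3 and 2, and 6 and 5. Nudt21, which selects the cleavage site, read -1.001 ± 0.24, and the poly(A)-binding protein Pabpc1 read 0.14 ± 0.03, which did not pass (adjusted p = 0.47). By its brightest probe set Cpeb3 read 0.75 ± 0.21, toward long tails. A second tested probe set of Cpeb3 read -0.18 ± 0.62 and did not pass (limma adjusted p = 0.585), so its position depends on the probe set. The brightest probe sets of Cpeb1 (-0.52 ± 0.13), Cpeb2 (-0.96 ± 0.22) and Cpeb4 (-0.98 ± 0.59) all lay toward short tails. Another probe set of Cpeb2 (-0.98 ± 0.48) and of Cpeb4 (-2.10 ± 1.23) did so too. In the long-tail fraction Cpeb2 stood above background on 1 of 3 arrays and Cpeb1 and Cpeb4 on 2 of 3, so the size of their ratios is uncertain. The call of Cpeb1 ended without any 1 mouse and that of Cpeb3 without mouse 3 (0.74, adjusted p = 0.12), and those of Cpeb1 and Cpeb4 ended after renormalization.

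Long noncoding RNAs stood out on the long-tail side. Of 437 genes of that biotype in RefSeq 165 lay toward long tails (37.8%, against 11.1% of all genes) and 41 toward short tails, with medians of 0.63, 0.29 and 0.36 in mice 1, 2 and 3. Without mouse 3 the counts were 29 and 15. Many of these genes were dim, and 246 of the 437 had a total RNA signal under 7. All 6 arrays stood above background for 197, of which 104 lay toward long and 14 toward short tails. Protein-coding genes had 1121 of 11399 toward long tails (9.83%), or 121 without mouse 3, and a median of -0.21. Kcnq1ot1, an imprinted antisense RNA that silences its neighbours, read 10.50, 9.93 and 9.98 in the long-tail and 8.31, 8.50 and 8.11 in the short-tail fraction, against 10.10, 10.17 and 9.98 in total RNA. Its tail ratio of 1.83 ± 0.39 (adjusted p = 0.0094) was thus a low short-tail signal and a long-tail signal at the level of total RNA. The nuclear RNA Malat1 varied little, at 12.18, 12.22 and 12.20 against 11.49, 11.67 and 11.48 (0.65 ± 0.09, adjusted p = 0.022). Xist, which coats the inactive X chromosome, had 3 probe sets that all lay toward long tails, the brightest at 0.74 ± 0.25. Malat1 and Xist did not pass without mouse 3 (0.62 and 0.61, adjusted p = 0.18 and 0.19).

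Other noncoding RNAs lay elsewhere. Jpx, an activator of Xist, read 0.94 ± 0.16 and the antisense RNA Srrm4os 1.81 ± 0.91, while the paraspeckle RNA Neat1 read -0.64, 0.16 and -0.21, did not pass (adjusted p = 0.37) and read 0.15 on average after quantile normalization again. Pantr1 lay toward short tails (-1.92 ± 0.37, adjusted p = 0.0094). Host genes of small nucleolar RNAs, whose introns are processed and whose spliced RNA often carries a pyrimidine-rich start, had 6 of 9 toward short and 0 toward long tails, with a median of -1.03, and 3 and a median of -0.38 above background only. Snhg8 read 10.87, 10.76 and 10.69 in the short-tail and 8.05, 8.72 and 6.22 in the long-tail fraction, a tail ratio of -3.11 ± 1.24 (adjusted p = 0.0098), and Snhg5 read -1.03 ± 0.31.

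Both kinds of histone gene lay below 0, with medians of -0.57 for replacement and -0.43 for replication-dependent histones, a difference that was not tested. Of 9 replacement histone genes, whose mRNAs are polyadenylated, 6 lay toward short and 0 toward long tails, or 3 without mouse 3 and 3 after renormalization, and the variant gene H2az1 read -2.10 ± 0.58 (adjusted p = 0.0094). Of 14 replication-dependent histone genes 5 lay toward short tails (35.7%, against 30.8% of all genes) and 1, H1f6, toward long tails (0.77 ± 0.32), or 3 and 0 without mouse 3. None of the 5 had all 6 arrays above background, and with such probe sets only 0 lay toward short and 1 toward long tails in limma with a median of 0.10. Against total RNA their median was -1.51 in the long-tail and -0.51 in the short-tail fraction. H3c1 read 12.70, 12.75 and 12.69 in total RNA, 9.58, 9.19 and 9.31 in the short-tail and 9.11, 8.87 and 8.57 in the long-tail fraction. H4c8 read 10.39, 10.26 and 10.21 in total RNA and 5.87 or less in both fractions, where 1 of 6 arrays stood above background. H3c1 and H4c8 were picked with their values known.

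Chromatin genes ran from -3.01 to 1.69. Of 67 remodellers and modifiers 18 lay toward long tails (26.9%, against 11.1% of all genes) and 8 toward short tails (11.9%, against 30.8%), with a median of 0.02 and medians of -0.03, -0.00 and 0.23 in the 3 mice. Zmynd8, a reader of histone marks, read 10.96, 10.77 and 10.93 in the long-tail and 9.28, 9.34 and 8.96 in the short-tail fraction, a tail ratio of 1.69 ± 0.27 (adjusted p = 0.0094). The histone methyltransferase subunit Setd1b (1.61 ± 0.96) and Tet3, which oxidises methylcytosine (1.41 ± 0.65), also lay toward long tails, and the maintenance methyltransferase Dnmt1 toward short tails (-0.60 ± 0.31, adjusted p = 0.044). The call of Dnmt1 ended without mouse 2 (-0.42) or mouse 3 (-0.65). Without mouse 3 the class had 7 toward long and 4 toward short tails, and after renormalization 24 and 4 with a median of 0.385. Of 186 zinc finger (Zfp) genes, the largest class, 20 lay toward long (10.8%, near the 11.1% of all genes) and 41 toward short tails (22.0%, against 30.8%). The median of these genes was -0.03, or 0.03 after renormalization. Their counts were 4 and 16 without mouse 3, 19 and 24 without mouse 2, 23 and 22 after renormalization and 16 and 13 above background only.

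Transcription factors of neurons had 8 of 46 genes toward long (17.4%, against 11.1% of all genes) and 7 toward short tails (15.2%, against 30.8%). Zbtb20 (1.12 ± 0.11, adjusted p = 0.0095) and Mef2d (1.08 ± 0.38) lay toward long and Tbr1, a factor of deep-layer cortical neurons, toward short tails (-1.24 ± 0.99, adjusted p = 0.041). Among 34 immediate early and activity-regulated genes 9 lay toward short (26.5%, near the 30.8% of all genes) and 2 toward long tails (5.88%, against 11.1%). Fos read -1.28 ± 0.56, Nr4a3 1.06 ± 0.46 and the activin subunit Inhba 1.05 ± 0.26, while the dendritic Arc read 0.51, -0.29 and 0.41 and did not pass. Without mouse 3 the counts of the 2 lists were 2 and 3, and 0 and 5, and without mouse 2 the second list had 5 toward long and 9 toward short tails. After renormalization the counts toward long and short tails were 13 and 1 in the first list, whose median went from 0.002 to 0.21, and 5 and 4 in the second.

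Scaffolds of the postsynaptic side lay toward long tails more often than toward short ones. Of 31 scaffold genes of the postsynaptic density 9 lay toward long (29.03%, against 11.1% of all genes) and 3 toward short tails, with medians of 0.52, 0.08 and 0.45 in mice 1, 2 and 3. Sorbs2, an adaptor of the actin cytoskeleton, read 10.10, 9.92 and 10.16 in the long-tail and 8.53, 8.59 and 8.17 in the short-tail fraction, and its tail ratio was 1.63 ± 0.33 (adjusted p = 0.0094). Shank1 (1.49 ± 1.04, adjusted p = 0.029) and Shank3 (1.07 ± 0.54, adjusted p = 0.020), master scaffolds of excitatory synapses, varied far more, with 2.54, 0.46 and 1.46 for Shank1 in the 3 mice. Dlg1, a relative of PSD-95, lay toward short tails (-0.98 ± 0.33). Without mouse 3 the counts were 2 toward long and 1 toward short tails, and after renormalization 13 and 2.

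Counts of receptor and channel lists stand beside 11.1% of all genes toward long and 30.8% toward short tails. Some shares lay near these, and differences between the lists were not tested. Of 16 ionotropic glutamate receptor subunits 5 lay toward long (31.25%) and 0 toward short tails, and 1 toward long tails without mouse 3. Grin2b, an NMDA receptor subunit, read 10.47, 10.54 and 10.12 in the long-tail and 9.59, 9.84 and 9.38 in the short-tail fraction (0.78 ± 0.09, adjusted p = 0.015), and Grin2a read 1.23 ± 0.60. GABA and glycine receptor subunits had 1 of 12 toward long (8.33%) and 5 toward short tails (41.7%). Their counts were 0 and 2 without mouse 3, 2 and 5 without mouse 2 and 3 and 3 after renormalization. Gabrg3 read 0.90 ± 0.15 and Gabrd -1.03 ± 0.17. Metabotropic glutamate, muscarinic, dopamine and serotonin receptors had 3 of 22 toward long and 5 toward short tails with a median of 0.17, or 0 and 1 without mouse 3 and 3 and 3 after renormalization. Of 31 calcium, sodium and HCN channel subunits 7 lay toward long (22.6%) and 4 toward short tails (12.9%). The counts were 3 and 3 without mouse 3 and 11 and 4 after renormalization. Cacna1e, the pore of R-type calcium channels, read 1.27 ± 0.39 and the auxiliary subunit Cacna2d3 -1.27 ± 0.58.

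Potassium channels had members on both sides. Of 58 subunits 15 lay toward long (25.9%, against 11.1% of all genes) and 13 toward short tails (22.4%, against 30.8%). The counts were 3 and 4 without mouse 3 and 17 and 4 after renormalization. Kcnj6, a channel opened by G proteins, read 9.66, 9.52 and 9.41 in the long-tail and 8.09, 8.33 and 8.33 in the short-tail fraction (1.28 ± 0.26, adjusted p = 0.0095). Kcnh7 read 1.48 ± 0.64 and the leak channel Kcnk1 -1.20 ± 0.71. The presynaptic classes had medians of -0.18 and -0.36, and this difference from the scaffolds was not tested: 3 of 22 active zone genes lay toward long and 5 toward short tails, and 4 and 13 of 44 SNARE and vesicle genes (9.09% and 29.5%, near the 11.1% and 30.8% of all genes). Without mouse 3 the counts were 1 and 3, and 1 and 7, and after renormalization 9 and 5, and 5 and 6. The giant scaffold Bsn read 1.43 ± 0.48 and Lin7b, of the same active zone list, -1.54 ± 0.58. Syn3, a synapsin, read 1.03 ± 0.25 and the vesicle protein Syt4 -1.52 ± 0.54. The median of the active zone class changed sign with renormalization, from -0.18 to 0.23.

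Endosomal sorting genes lay toward short tails for the most part. Of 43 Vps and ESCRT genes 24 lay toward short and 1 toward long tails, led by the retromer subunit Vps29 (-1.81 ± 0.92), and 15 and 0 without mouse 3, or 13 and 0 with a median of -0.48 in place of -0.85 above background only. In mTOR and PI3K signalling 5 of 26 genes lay toward long (19.2%, against 11.1% of all genes) and 10 toward short tails (38.5%, against 30.8%). These counts were 3 and 5 without mouse 3 and turned to 9 and 5 after renormalization. The inhibitors Tsc1 (1.19 ± 0.16, adjusted p = 0.0094) and Deptor (1.25 ± 0.30) lay toward long tails and Lamtor5, a subunit of the lysosomal anchor of mTORC1, toward short tails (-2.09 ± 0.94). Of 39 Eph, semaphorin, plexin and Wnt receptor genes 7 lay toward long (17.9%) and 4 toward short tails (10.3%). For this list the counts were 1 and 2 without mouse 3 and 13 and 1 after renormalization, and Plxna4 read 1.30 ± 0.51.

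Neuropeptides and secreted factors had 13 of 28 genes toward short and 0 toward long tails, or 7 without mouse 3 and 7 above background only, such as Npy (-1.31 ± 0.58) and the chaperone of prohormone convertase Scg5 (-1.48 ± 0.53). Of 75 autism risk genes 19 lay toward long (25.3%, against 11.1% of all genes) and 12 toward short tails (16.0%, against 30.8%), with a median of 0.09. The counts were 4 and 7 without mouse 3 and 29 and 7 with a median of 0.40 after renormalization. Nlgn1, an adhesion protein of excitatory synapses, read 8.01, 7.46 and 7.75 in the long-tail and 6.18, 6.47 and 6.17 in the short-tail fraction, below the 8.74, 8.43 and 7.94 of total RNA in both. Its tail ratio was 1.46 ± 0.43 (adjusted p = 0.0096). Adnp, a chromatin regulator, lay toward short tails (-1.34 ± 1.15, adjusted p = 0.0465) with -2.67 in mouse 1 against -0.71 and -0.64 in mice 2 and 3. Without mouse 1 its tail ratio was -0.68 and still passed (adjusted p = 0.0175).

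Genes often used as references had mean ratios from -0.36 to 0.20 by their brightest probe sets and did not pass. The cytoskeletal actin Actb read -0.29, -0.01 and -0.08, with a mean of 0.006 after quantile normalization again, the glycolytic enzyme Gapdh -0.40, -0.22 and -0.46 and the dendritic microtubule protein Map2 0.31, 0.09 and 0.21. A second tested probe set of Map2 read 0.10, -0.75 and -0.67 and did not pass either (limma adjusted p = 0.14). The kinase gene Camk2a, a well-known dendritic mRNA, had 6 probe sets, all with a positive tail ratio, of which 4 passed. Its brightest read 0.36 ± 0.07 and did not pass (adjusted p = 0.093), whereas Camk2b lay toward short tails (-0.88 ± 0.39, adjusted p = 0.020), not without mouse 3 (-0.85, adjusted p = 0.094). Rgs9, a striatal regulator of G proteins, had one of the highest tail ratios: 10.997, 10.16 and 10.48 in the long-tail against 8.80, 8.68 and 8.68 in the short-tail fraction (1.82 ± 0.36, adjusted p = 0.0094). It went against the other striatal markers: of 7 tested 4 lay toward short tails and Rgs9 alone toward long tails, with a median of -0.54. The cortical relative Rgs4 lay toward short tails at -3.08, -0.53 and -1.26, a wide spread with mouse 1 lowest.

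Markers of the cell types of the tissue also lay on both sides. Summed over a list, the log2 signal of the microglial markers ran from 11.92 to 11.99 on the short-tail and from 10.97 to 11.39 on the long-tail arrays, with 5 of 7 toward short tails. For GABAergic markers the sums were 13.45 to 13.53 and 12.23 to 12.98, with 5 of 7 toward short tails, and for oligodendrocyte markers 13.48 to 13.61 and 12.97 to 13.32, with 4 of 8. The excitatory cortical markers ran from 13.64 to 13.67 on short-tail and from 13.85 to 14.11 on long-tail arrays, with 1 of 4 called, toward short tails. The striatal markers ran from 12.82 to 12.91 on short-tail and from 12.59 to 12.78 on long-tail arrays. Of these, 4 of 7 lay toward short and 1, Rgs9, toward long tails. Astrocyte markers overlapped, at 13.98 to 14.03 and 13.82 to 14.01. The part of cell type in the class positions was not tested.

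**Figure D3:**
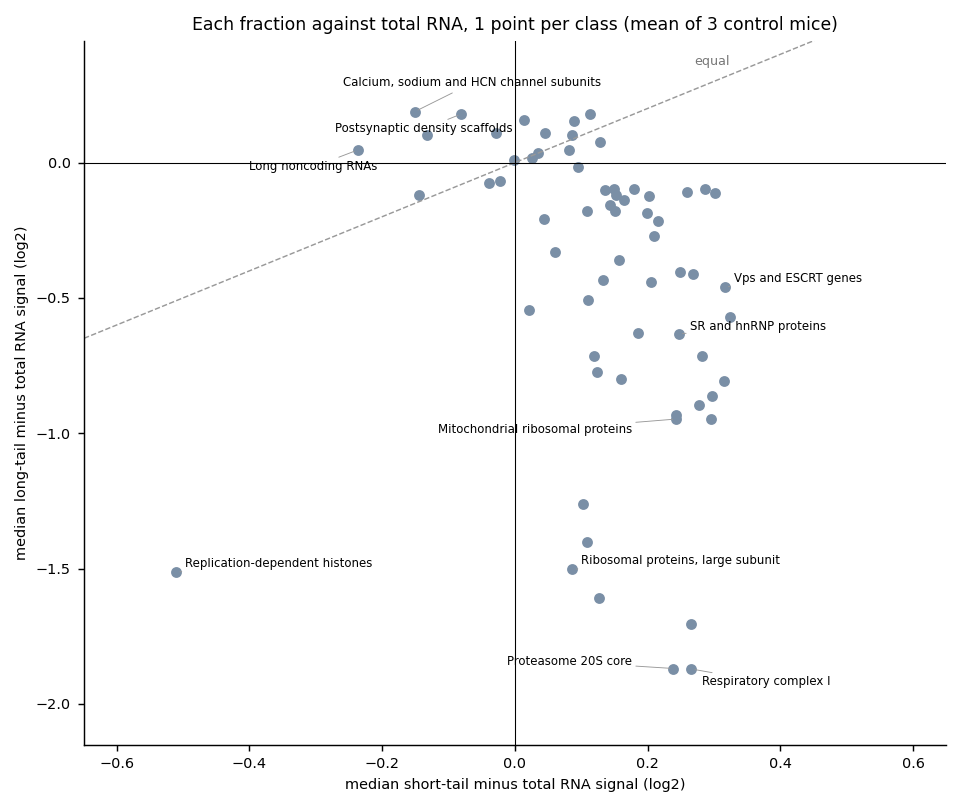
Median signal of each of 65 classes against total RNA (log2), with the short-tail minus total difference on the x axis and the long-tail minus total difference on the y axis; each point is a class, averaged over 3 control mice, and the dashed line marks equal differences. Of the 65 classes 64 lie within 0.35 of total RNA on the x axis and they spread over about 2 units on the y axis, and the replication-dependent histones lie low on both.

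Set against total RNA, the tail ratio lay mostly in the long-tail fraction. The SD over genes of short-tail minus total signal was 0.347, 0.361 and 0.388 in the 3 mice, and that of long-tail minus total signal 0.979, 0.391 and 0.642. Complex I genes had a median of -1.87 in the long-tail and 0.27 in the short-tail fraction, large ribosomal subunit genes -1.50 and 0.09, and proteasome core genes -1.87 and 0.24. For classes at the upper end both sides were small, at 0.18 and -0.08 for postsynaptic scaffolds and 0.19 and -0.15 for calcium, sodium and HCN channels. The share of genes with all 6 arrays above background was 75.7% of those toward long tails and 52.1% of those toward short tails. Of the genes toward short tails 1767 had at least 1 long-tail array at or below background, and for 17 all 3 were, so that their tail ratio is a bound. Of the named genes with a call, Cpeb1, Cpeb4 and Mrpl13 stood above background on 2 and Cpeb2 and Tyrobp on 1 of 3 long-tail arrays.

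**Figure D4:**
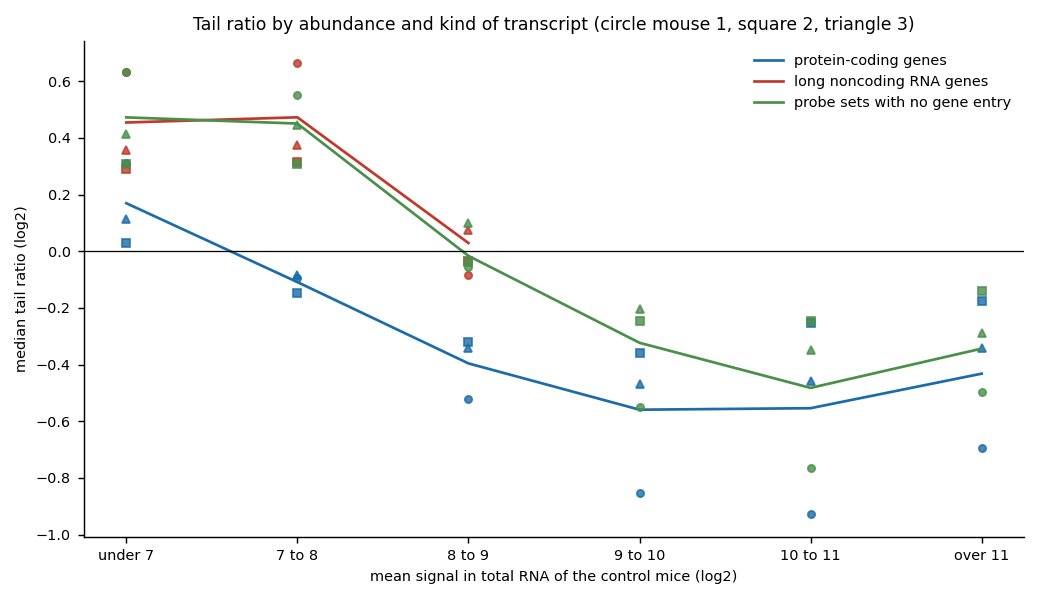
Median tail ratio (log2, y axis) of protein-coding genes, long noncoding RNA genes and probe sets with no gene entry, in bins of mean signal in total RNA (log2, x axis); lines join the medians of the mean ratios and symbols are the 3 control mice. The medians of protein-coding genes fall from the dimmest bin to a signal of 9 to 10, and in the 2 dimmest bins noncoding RNAs and probe sets without an entry lie about 0.3 to 0.6 above protein-coding genes.

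The tail ratio moved with abundance. Genes with a total RNA signal under 7 had a median tail ratio of 0.21, those at 7 to 8 had -0.08, at 8 to 9 -0.39, at 9 to 10 -0.55, at 10 to 11 -0.55 and over 11 -0.42. Set against the median of its own abundance bin, complex I had a median difference of -1.51, the large ribosomal subunit of -1.21 and the proteasome core of -1.52. Glycolysis, with 6 of 14 genes toward short tails, or 3 without mouse 3, differed by -0.15. On the other side postsynaptic scaffolds lay 0.80 above their bins, the 19 listed long noncoding RNAs 0.69, calcium, sodium and HCN channels 0.64 and autism risk genes 0.49. Long noncoding RNA genes with a signal of 7 to 8 had a median of 0.47 against -0.11 for protein-coding genes of that level. At 8 to 9 the 39 long noncoding RNA genes had a median of 0.03 against -0.40, with 15 toward long and 14 toward short tails. Their medians there were -0.08, -0.03 and 0.07 in mice 1, 2 and 3. Of 7468 probe sets that the annotation pairs with no gene 2657 lay toward long tails (35.6%, against 18.3% of all 27022) and 1439 toward short tails (19.3%, against 27.4%), and without mouse 3 the counts were 1048 and 822.

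Gene length in the genome also varied along the range. Among genes with a total RNA signal of 9 to 10, the lowest 10% by tail ratio spanned a median of 10.3 kb and the highest 10% 82.9 kb from first to last exon in RefSeq. At 10 to 11 the spans were 6.77 and 71.0 kb and over 11 they were 4.91 and 73.6 kb. The spans lay closer at 7 to 8, with 18.3 and 22.4 kb, and under 7 the order turned, with 23.6 and 14.8 kb. The class medians varied likewise, from 3.2 kb for large ribosomal subunit genes and 7.7 kb for complex I to 151 kb for postsynaptic scaffolds and 298 kb for ionotropic glutamate receptors. Abundance and tail ratio did not order the classes alike. RNA polymerase subunits and glycolysis genes had median total RNA signals of 8.15 and 11.7, with median tail ratios of -1.08 and -0.57. The part of abundance and of span in the class positions was not tested.

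**Figure D5:**
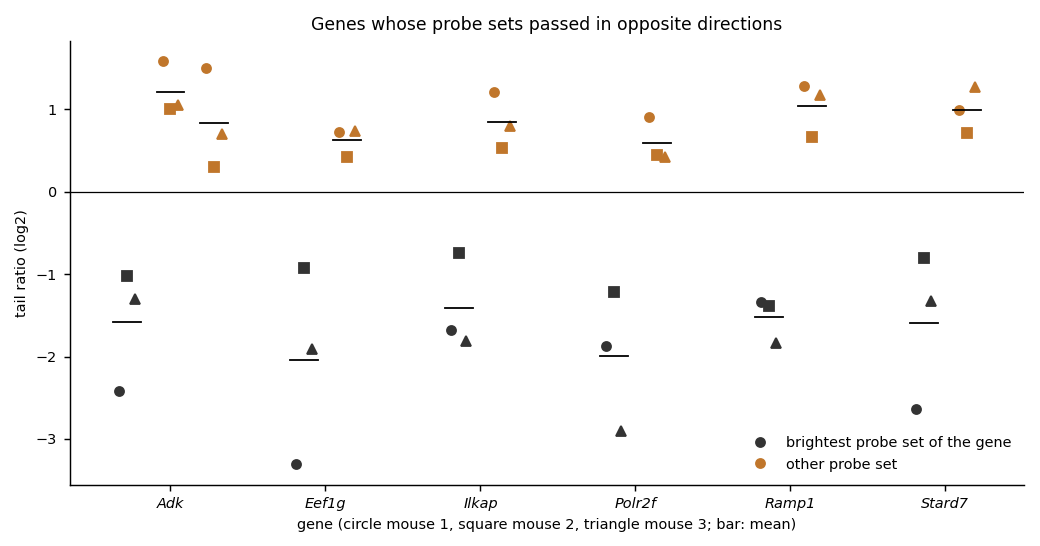
Tail ratio (log2, y axis) of each probe set of 6 genes whose probe sets passed in opposite directions, with the brightest probe set of the gene in black and the others in orange; symbols are the 3 control mice and bars are means. The brightest probe set lies below 0 and the dimmer ones above 0 in every mouse.

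Probe sets of 1 gene could disagree. Of 635 genes with at least 2 probe sets that passed and stood above background on all 6 arrays, 567 agreed in direction and 68 did not. The widest gaps were those of Adk, adenosine kinase, with -1.58 ± 0.74 for its brightest and 1.22 ± 0.32 and 0.84 ± 0.62 for its other probe sets, and of Eef1g, an elongation factor subunit, with -2.05 ± 1.20 and 0.63 ± 0.18. Ramp1 read -1.52 ± 0.27 and 1.04 ± 0.33, Stard7 -1.59 ± 0.95 and 0.99 ± 0.28, Polr2f -1.998 ± 0.848 and 0.59 ± 0.27, and the phosphatase Ilkap -1.41 ± 0.58 and 0.85 ± 0.35. In each of the 6 genes the dimmer probe set stood toward long tails, and the brightest one toward short tails. A gene's tail ratio here is that of the sequence its brightest probe set reads.

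In transgenic mice the median tail ratio was nearer to 0 for 52 of 65 classes, and no single gene passed a test of the difference. Complex I had medians of -0.97, -0.99 and -0.71 in the 3 transgenic mice and the large ribosomal subunit -0.48, -0.72 and -0.60, whereas postsynaptic scaffolds had 0.12, 0.01 and 0.08. The genotype difference of the tail ratio passed for 0 of 27022 probe sets in limma (lowest adjusted p = 0.37), and 3621 had an unadjusted p under 0.05 (13.4%), 2413 with a lower (8.93%) and 1208 with a higher (4.47%) ratio in control mice. The 5 genes with the lowest p all had a lower ratio in control mice: Ndufb7 by -1.17 ± 0.18 (SE), Rpl31 by -1.33 ± 0.24, Mrpl13 by -1.18 ± 0.23, the microglial adaptor Tyrobp by -1.44 ± 0.25 and the pseudogene Rpl31-ps12, whose sequence Rpl31 may share, by -1.60 ± 0.27 (adjusted p = 0.37 for each). Without control mouse 2, the one with the narrowest range of ratios, 2487 probe sets passed, 1958 of them lower in control mice, so this result rests on that mouse.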

How the data were processed

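The deposited values are log2 signals per probe set of 18 Affymetrix arrays, made by the authors with RMA (background subtraction, quantile normalization, probe summary), per the submitters' processing notes; the sources used here do not give its version. Genes were named through the platform annotation and checked against RefSeq (GRCm38.p6), which changed 0 symbols. Of 45037 probe sets without 104 controls, 27022 had a mean over 18 arrays above the 40th percentile (log2 5.95) and were tested: 19143 with 1 gene, 411 with several and 7468 with none. A gene is read by its brightest probe set. Each mouse gave 1 difference, long-tail minus short-tail, and limma 3.58.1 (R 4.3.3) tested the mean of 3 control mice against 0, two-sided, with Benjamini-Hochberg adjustment over 27022 probe sets. Only control mice set the spread. That both fractions belong to 1 mouse is stated by the labels (pairing). Deviations from the group means correlated at -0.07, 0.16 and -0.02 within mice, and without the pairing (no block for the mouse) 14137 probe sets passed against 12361. The p-values measure the spread between 3 mice, whose number limits the precision. Data were simulated with the same spreads, shuffled among probe sets. Of these, 27 of 100 probe sets changed by 2 units, 0 of 100 changed by 1 and 0 of 26822 unchanged ones passed. Far fewer probe sets were changed there than the 12361 that passed in the data. The Benjamini-Hochberg adjustment is stricter where few are changed, so these counts do not give the power of the comparison. Background is the highest of 23 such control probe sets on an array (5.43 to 7.30). The functional classes and genes were chosen with earlier results of these data known. Named genes are the 12 highest and 12 lowest that passed with all 6 arrays above background, up to 3 at each end of a class, 6 genes with opposite probe sets, 5 with the lowest genotype p and a fixed list; exceptions are marked in the text.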

Additional observations from a re-analysis of the deposited data

Results flagged for a closer look

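Actb, a reference gene, had a mean tail ratio of -0.13 in control mice, with -0.29, -0.01 and -0.08, and 0.04, 0.01 and 0.04 in transgenic mice. The opposite signs in all mice called attention to it, but the difference of -0.16 ± 0.17 (SE) did not pass in limma (adjusted p = 0.66). The median of the 58 potassium channel subunits was 0.17, with 0.35, 0.02 and 0.03 in control mice, and -0.02, -0.03 and -0.08 in transgenic mice. This difference between the genotypes was not tested.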

How the results depend on the processing

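Filters, scaling and leaving out mice changed the number of calls, and the direction of classes near 0. Of 65 class medians 16 changed sign and 19 changed their side of the median of all genes under at least 1 setting. Probe sets that passed numbered 12361, and 5602 to 11708 when single mice were left out, the fewest without mouse 3. They numbered 7780 with a filter at the 60th percentile and 7142 where all 6 fraction arrays had to exceed background. For genes the count was 5017, with 2212 to 4778 without single mice, 3188 above background and 7548 with limma's trend and robust options. Without the pairing 5906 genes passed, and with each mouse rescaled to the same SD, an alternative chosen after seeing the data, 6946. The genotype difference gave 0 probe sets in the other settings and 0 to 2487 when single mice of either genotype were left out. Of the genes named, 4 changed sign under 1 setting each: with quantile normalization again Neat1 read 0.15 and Actb 0.00606, and with all probe sets of a gene averaged Map2 read -0.12 and Adk 0.16. Over 122 named genes and 13 settings, 1460 of 1573 values kept their sign and their side of the threshold, 75 lost and 34 gained a call. Calls of Adnp, Camk2b, Cnot8, Cpeb1, Cpeb4, Dnmt1, Kcnk1, Ndufs1, Pan3 and Tbr1 ended with quantile normalization again. Those of Cpeb3, Gabrd, Ilkap, Med1, Nr4a3, Pan3, Psmb9, Ramp1, Srrm1, Stard7 and Tob2, and that of Adk, ended with probe sets averaged. The cause was not tested. Low signal limits the lowest ratios.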

Other observations

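Control probe sets of the array, which the comparisons did not use, gave these values. Ribosomal RNA has no poly(A) tail. Its 18S probe set nearest the 3' end read 13.3, 13.3 and 13.3 in the long-tail and 13.2, 13.3 and 13.3 in the short-tail fraction. In total RNA it read 13.4, 13.4 and 13.4. The 18S probe set nearest the 5' end was higher in the long-tail fraction by 0.48, 0.05 and 0.15 in mice 1, 2 and 3. The middle one was higher there by 0.33, 0.09 and 0.16. The B2 repeat, a short interspersed element present in many transcripts, was read higher in the long-tail fraction by 1 of its probe sets, at 13.3, 13.1 and 13.1 against 12.6, 12.7 and 12.6, and by another at 9.44, 8.66 and 8.67 against 7.86, 7.93 and 8.00. The B1 repeat differed by 0.81, 0.20 and -0.34 in mice 1, 2 and 3. The 3' minus 5' signal of actin was -1.08, -0.66 and -0.96 in the long-tail and -0.59, -0.48 and -0.62 in the short-tail fraction. That of Gapdh was 0.15, -0.18 and -0.12 in the long-tail and -0.20, -0.17 and -0.16 in the short-tail fraction.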
